A study of Mus musculus with 6 samples.

Results

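This account covers 8 genes of salivary duct ionocytes and of the epithelial sodium channel in the submandibular gland of NOD mice with and without Myd88. They are the transcription factor genes Foxi1 and Ascl3, the chloride transport genes Cftr and Bsnd, the proton pump gene Atp6v1b1, and Scnn1a, Scnn1b and Scnn1g, which encode the sodium channel subunits. The genes were chosen by symbol, all 8 were found among the 19505 named genes of the array, and each had 1 probe set, so none was left out. The 6 gland samples came from female NOD mice aged 10 weeks, 3 labelled NOD.B6-Myd88+/+ and 3 labelled NOD.B6-Myd88-/-, with 1 Clariom S array each and no treatment in the labels. The labels number the samples without stating that each is a separate mouse, as is taken here. The p-values set each difference between genotypes against the spread of these samples within genotypes, estimated with the help of all probe sets. NOD mice, the background that both groups share, develop autoimmune inflammation of the salivary glands. Myd88 encodes the adaptor of most Toll-like receptors and of interleukin-1 family receptors. The labels do not say how the Myd88-/- allele was made, or whether mice of the 2 groups were littermates.

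Saliva leaves the acini rich in sodium chloride, and the ducts take sodium and chloride back while they add potassium and bicarbonate. Sodium enters duct cells through the epithelial sodium channel ENaC, which is built from alpha, beta and gamma subunits, and chloride follows largely through Cftr, a channel that also passes bicarbonate. Ionocytes are scattered epithelial cells, known from airway, kidney (as intercalated cells), inner ear and salivary duct, that depend on Foxi1 and carry much of the vacuolar proton pump. Ascl3 marks a small population of salivary duct cells and is also a gene of airway ionocytes.

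Promoter windows are shown for the 2 transcription factor genes, whose genotypes did not overlap, and for Atp6v1b1 and Cftr, genes of ionocyte function with smaller or opposite differences. The windows are from RefSeq on GRCm38.p6, read 5′ to 3′ on the strand of the gene, and run from 250 bases before the annotated start to 30 bases after it. Capitals mark letters of the motifs searched.
Foxi1, chr11:34208060-34208339, minus strand: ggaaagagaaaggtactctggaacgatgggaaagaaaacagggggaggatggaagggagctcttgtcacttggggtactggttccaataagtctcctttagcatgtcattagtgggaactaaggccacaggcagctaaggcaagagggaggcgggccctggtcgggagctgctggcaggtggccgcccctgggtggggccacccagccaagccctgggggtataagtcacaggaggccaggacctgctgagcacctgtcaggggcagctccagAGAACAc
Ascl3, chr7:109731703-109731982, minus strand: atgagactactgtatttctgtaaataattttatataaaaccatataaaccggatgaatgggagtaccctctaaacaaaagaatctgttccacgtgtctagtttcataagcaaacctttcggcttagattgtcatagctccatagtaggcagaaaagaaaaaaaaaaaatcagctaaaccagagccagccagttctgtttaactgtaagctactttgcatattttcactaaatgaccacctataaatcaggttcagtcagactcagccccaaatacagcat
Atp6v1b1, chr6:83742767-83743046, plus strand: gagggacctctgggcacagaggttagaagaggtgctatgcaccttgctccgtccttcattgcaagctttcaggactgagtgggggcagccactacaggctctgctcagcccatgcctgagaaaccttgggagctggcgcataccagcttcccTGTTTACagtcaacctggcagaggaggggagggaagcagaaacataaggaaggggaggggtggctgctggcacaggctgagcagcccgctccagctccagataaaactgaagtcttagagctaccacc
Cftr, chr6:18170437-18170716, plus strand: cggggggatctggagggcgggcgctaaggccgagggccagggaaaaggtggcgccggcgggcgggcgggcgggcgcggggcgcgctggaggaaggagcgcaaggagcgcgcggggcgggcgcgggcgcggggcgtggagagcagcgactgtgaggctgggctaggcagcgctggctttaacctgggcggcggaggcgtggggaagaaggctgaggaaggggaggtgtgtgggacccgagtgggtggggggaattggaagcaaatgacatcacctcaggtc

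The search covered 6 windows, those of the 4 genes above and of Scnn1b and Scnn1g, on both strands and to 50 bases after the start. The forkhead motif TGTTTAC stood once, in Atp6v1b1, beginning 98 bases before the start, and is held by 3.65% of all 32851 RefSeq windows of this length. The half-site of glucocorticoid and mineralocorticoid receptors, AGAACA, stood once, in Foxi1 just after the start, and is held by 19% of all windows. The E-box CAGCTG, which is its own reverse complement, stood in 0 of the 6 windows and in 16.3% of all windows. The forkhead and half-site matches lay in different windows, so they could not overlap. The Cftr window was 71.3% G and C and the Ascl3 window 36%, against a median of 52.7% over all windows. A match is a description of letters and not a bound site.

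Foxi1 and Ascl3 were the 2 members whose genotypes did not overlap, both with lower values in Myd88-/- glands. Foxi1 and Ascl3 differed by a factor of 1.52 and 1.95, Cftr leaned the other way, and Bsnd and Atp6v1b1 lay close to no difference. The 3 sodium channel subunits had lower Myd88-/- means with overlapping groups. None of the 8 passed limma's test over all 22206 probe sets (0 of 8, adjusted p from 0.36 to 0.97), and neither did any other probe set (0%), while 2232 probe sets had an unadjusted p under 0.05. At an unadjusted p under 0.05, 3 members were lower, Ascl3, Foxi1 and Scnn1g, and 0 were higher, where 5.55% of all probe sets were lower and 4.5% higher by that rule. Groups did not overlap in the lower direction for 2 of 8 members against 7.25% of all probe sets, and in the higher direction for 0 of 8 against 7.84%. The members' median log2 difference, Myd88-/- minus Myd88+/+, was −0.38, beside 0.02 over all probe sets. Members were chosen with earlier results of these data known, so these shares and medians describe the set and do not test it. Signal set a limit for 5 of the 8 genes, measured against the 95th percentile of 5222 negative control probe sets, a log2 value of 9.82. Cftr, Scnn1a and Scnn1b were above it in all 6 glands, Foxi1 in 2, Scnn1g in 1, and Ascl3, Atp6v1b1 and Bsnd in 0. Of the negative controls, 5.42% had a higher mean than Foxi1, 5.67% than Scnn1g, 9.12% than Ascl3 and 10.7% than Atp6v1b1. Because these are whole glands, fewer cells of a type and less RNA per cell cannot be told apart.

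**Figure D1:**
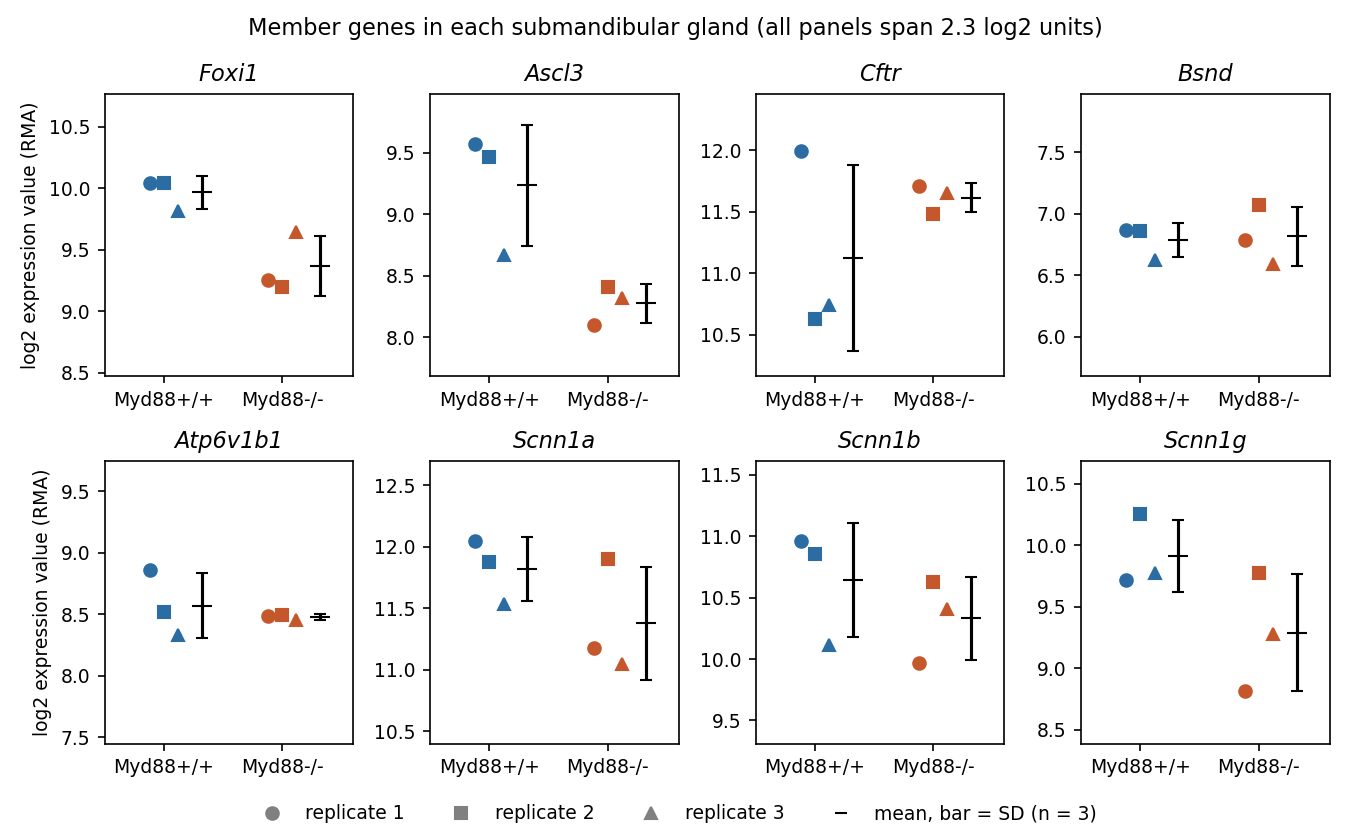
Log2 expression value (vertical axis) of each of the 8 genes in each gland, by genotype (horizontal axis), with a symbol for each replicate number and a bar for the mean and SD of 3 glands. Every panel spans the same number of log2 units. The Myd88-/- points lie below all Myd88+/+ points for Foxi1 and Ascl3 and overlap them for the other 6 genes.

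Values by mouse follow in the order of replicates 1, 2 and 3 of a genotype, a number that names a mouse and was not taken as a pairing. Foxi1 encodes the forkhead factor on which ionocytes and kidney intercalated cells depend. Its log2 values were 10.05, 10.05 and 9.81 in Myd88+/+ glands, against 9.25, 9.20 and 9.64 in Myd88-/- glands. The highest Myd88-/- gland, replicate 3, lay 0.17 below the lowest Myd88+/+ gland. The means were 9.97 ± 0.13 and 9.37 ± 0.24 (SD, n = 3 each). Their log2 difference was −0.60 with a standard error (SE) of 0.19 and a limma 95% interval, unadjusted for the number of probe sets, of −1.02 to −0.19 (limma adjusted p = 0.39). The difference was larger than the spread within either genotype but not past the threshold set for the whole array. It kept its sign under each of the 14 alternative settings tried, from −0.82 to −0.47, with adjusted p from 0.27 to 0.68.

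Ascl3, a basic helix-loop-helix factor of a duct cell population, had the largest difference of the 8. Its log2 values were 9.57, 9.47 and 8.67 in Myd88+/+ glands, against 8.10, 8.41 and 8.32 in Myd88-/- glands. Myd88+/+ replicate 3 stood apart from the rest of its group and lay 0.27 above the highest Myd88-/- gland. The means were 9.24 ± 0.49 and 8.28 ± 0.16 (SD, n = 3 each), a log2 difference of −0.96 (SE 0.25, 95% interval −1.52 to −0.40, limma adjusted p = 0.36). Myd88+/+ glands spread over 0.90 log2 units and Myd88-/- glands over 0.31. Leaving out 1 mouse at a time gave −1.24 to −0.79, the first without Myd88+/+ replicate 3, and each of the 14 settings gave a negative value, with adjusted p from 0.23 to 0.68.

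Cftr, the chloride and bicarbonate channel, was the only member with a higher Myd88-/- mean of more than 0.1. Its log2 values were 11.99, 10.63 and 10.74 in Myd88+/+ glands, against 11.71, 11.48 and 11.66 in Myd88-/- glands. The 3 Myd88-/- glands lay within 0.23 of each other and above Myd88+/+ replicates 2 and 3, while Myd88+/+ replicate 1 was the highest of all 6. The log2 difference was 0.49 (SE 0.33, 95% interval −0.25 to 1.24, limma adjusted p = 0.65). It was 0.93 without Myd88+/+ replicate 1 (limma adjusted p = 0.22), 0.25 without replicate 2 and 0.30 without replicate 3 of that genotype, so single Myd88+/+ mice set its size. Adipocyte markers were also highest in Myd88+/+ replicate 1, with a mean centred value of 0.45 against −0.27 and −0.34 in replicates 2 and 3. Of the 6 adipocyte genes, 5 lay under 5.55, the middle value of 23 background control probe sets (the background control median), and the part of fat tissue in the Cftr values was not tested.

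Bsnd and Atp6v1b1 had the smallest differences. Bsnd encodes barttin, the subunit that kidney and ionocyte chloride channels of the ClC-K type need at the membrane. It read 6.87, 6.86 and 6.62 in Myd88+/+ glands, against 6.79, 7.07 and 6.59 in Myd88-/- glands. Myd88-/- glands held both the highest and the lowest of the 6 values. Its log2 difference of 0.03 (95% interval −0.39 to 0.45, limma adjusted p = 0.97) was smaller than its SE of 0.19. Bsnd was also the dimmest member, in every gland above the background control median but with a mean below that of 35.5% of the negative control probe sets.

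Atp6v1b1 encodes the B1 subunit of the vacuolar proton pump, the form found in ionocytes and intercalated cells. It read 8.86, 8.52 and 8.33 in Myd88+/+ glands, against 8.48, 8.50 and 8.45 in Myd88-/- glands. The Myd88-/- glands lay within 0.04 of each other and inside the Myd88+/+ range. The log2 difference was −0.09 (SE 0.18, 95% interval −0.50 to 0.32, limma adjusted p = 0.90), and its sign turned under 4 of 14 settings, quantile normalization and cyclic loess among them. The Bsnd and Atp6v1b1 intervals, with lower ends of −0.39 and −0.50, overlapped the Foxi1 interval of −1.02 to −0.19. The difference between these genes in their response was not tested. Bsnd and Atp6v1b1 were above the negative control level of 9.82 in 0 glands, so signal limits what their small differences can show.

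**Figure D2:**
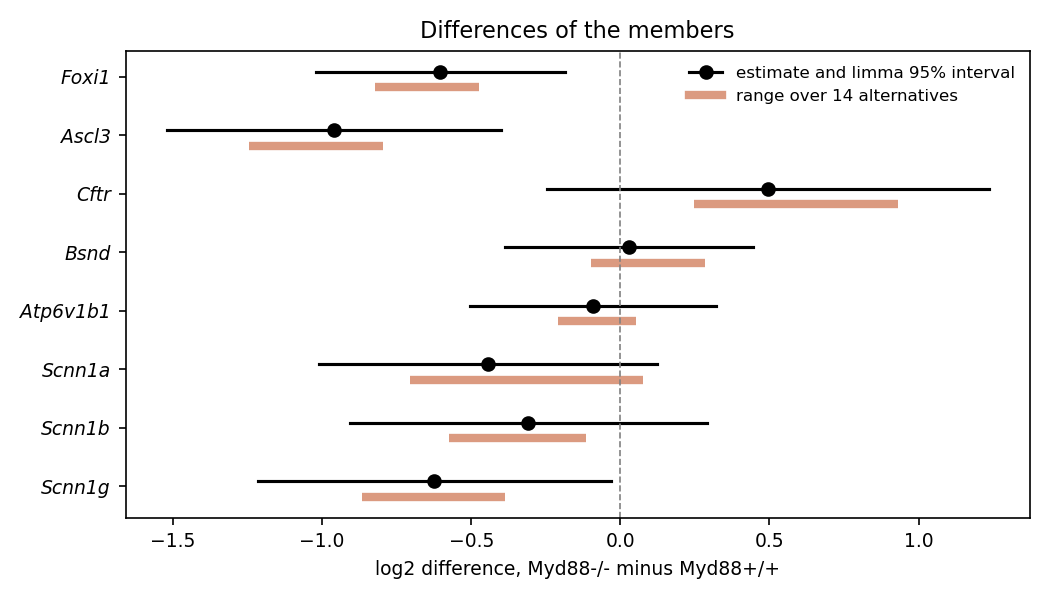
Log2 difference, Myd88-/- minus Myd88+/+ (horizontal axis), for each gene (vertical axis). The black point and line give the limma estimate with its 95% interval, and the orange bar gives the range of the estimate over 14 alternative settings, which include leaving out each mouse. The intervals of Foxi1, Ascl3 and Scnn1g lie below 0, and the orange bars of Bsnd, Atp6v1b1 and Scnn1a cross 0.

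The sodium channel subunits each had a lower mean in Myd88-/- glands and overlapping groups, with Myd88-/- replicates 1 and 3 low in all 3 genes against most Myd88+/+ glands. Scnn1a, the alpha subunit without which the channel hardly reaches the membrane, read 12.05, 11.88 and 11.54 in Myd88+/+ glands, against 11.18, 11.90 and 11.05 in Myd88-/- glands. Myd88-/- replicate 2 was second only to Myd88+/+ replicate 1, and the other Myd88-/- glands lay below all Myd88+/+ glands. The log2 difference was −0.44 (SE 0.25, 95% interval −1.01 to 0.12, limma adjusted p = 0.59).

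Scnn1b, the beta subunit, read 10.96, 10.85 and 10.11 in Myd88+/+ glands, against 9.96, 10.63 and 10.40 in Myd88-/- glands. Myd88+/+ replicate 3 was lower than 2 of the 3 Myd88-/- glands. The log2 difference was −0.31 (SE 0.27, 95% interval −0.91 to 0.29, limma adjusted p = 0.72). Scnn1g, the gamma subunit, whose gene is the direct coding neighbour of Scnn1b on chromosome 7 (0 coding genes between them), read 9.71, 10.25 and 9.77 in Myd88+/+ glands, against 8.82, 9.78 and 9.28 in Myd88-/- glands. Myd88-/- replicate 2 lay just above Myd88+/+ replicates 1 and 3, so the groups overlapped. The log2 difference of −0.62 (SE 0.26, 95% interval −1.22 to −0.03, limma adjusted p = 0.48) was 1.54-fold, the largest of the subunits.

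In each subunit Myd88-/- replicate 2 was the highest gland of its genotype. Averaged over the 3 subunits, each centred on its mean of the 6 glands, the Myd88+/+ glands stood at 0.34, 0.43 and −0.09 and the Myd88-/- glands at −0.57, 0.21 and −0.32. The arrays of the same low glands, Myd88-/- replicates 1 and 3, also had the narrowest signal. Between its 10th and 90th percentiles an array spanned 7.30, 7.10 and 7.20 log2 units for Myd88+/+ glands, against 6.95, 7.13 and 6.83 for Myd88-/- glands. With that span as a covariate, a setting added after the data were seen, the differences were 0.08 for Scnn1a, −0.12 for Scnn1b and −0.50 for Scnn1g, and Foxi1 and Ascl3 were at −0.82 and −0.86. Leaving out 1 mouse at a time gave −0.71 (without Myd88-/- replicate 2) to −0.28 (without Myd88-/- replicate 3) for Scnn1a. The same gave −0.57 (without Myd88+/+ replicate 3) to −0.12 (without Myd88-/- replicate 1) for Scnn1b, and −0.87 (without Myd88-/- replicate 2) to −0.39 (without Myd88-/- replicate 1) for Scnn1g. With array weights the subunits stood at −0.51 for Scnn1a, −0.40 for Scnn1b and −0.81 for Scnn1g. The signal span was narrower in Myd88-/- replicates 1 and 3 than in every Myd88+/+ gland. With 6 arrays, the covariate therefore cannot tell the part of the span from that of the genotype, and the part of the span was not tested.

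**Figure D3:**
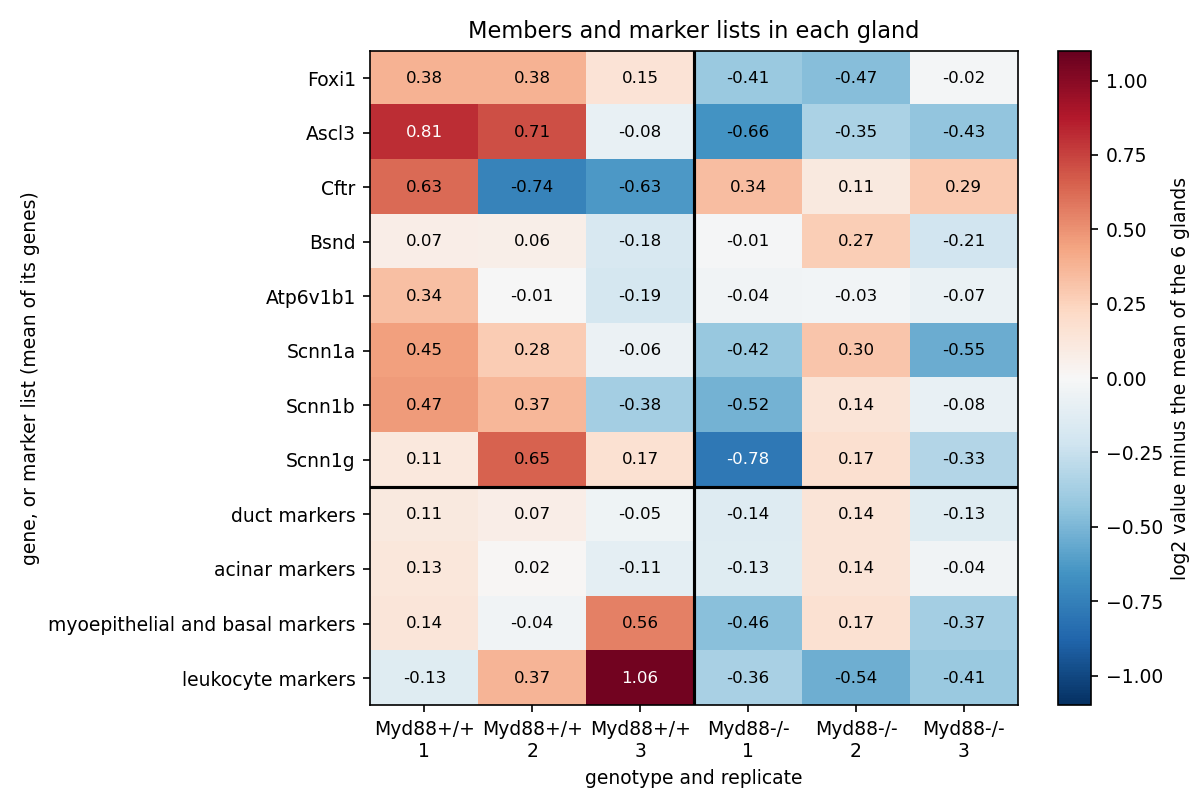
Log2 value minus the mean of the 6 glands, in each gland (columns, genotype and replicate), for the 8 genes and for the mean of 4 marker lists (rows), with red for higher and blue for lower and the number printed in each cell. Foxi1 is negative in all Myd88-/- glands and positive in all Myd88+/+ glands. The sodium channel subunits and the duct, acinar and myoepithelial markers are positive in Myd88-/- replicate 2, as are Cftr and Bsnd.

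Markers of the cells that a gland holds were set beside these values. Duct markers, such as the keratin gene Krt7 and the tight junction gene Cldn4, were above the background control median for 10 of 12 measured genes. Krt19 and the iodide transporter gene Slc5a5 were under it, and the kallikrein gene Klk1 was saturated on every array. Of the other 11 duct markers 6 were lower, Cldn4 at −0.82 among them, and 5 higher, at a median of −0.01 over all 12. At an unadjusted p under 0.05 in limma, 2 were lower and 0 higher, beside 5.55% and 4.5% of all probe sets. Groups did not overlap for 2 lower and 0 higher, beside 7.25% and 7.84%. The mean centred value of the list ran from −0.05 to 0.11 in Myd88+/+ and from −0.14 to 0.14 in Myd88-/- glands. Myd88-/- replicate 2 had the highest duct value of all 6 glands, and also the highest acinar value. Myd88-/- replicates 1 and 3, the glands low in the sodium channel subunits, had the lowest duct values, −0.14 and −0.13. Acinar markers had a median of −0.05, with 8 of 10 genes above background, ranges of −0.11 to 0.13 in Myd88+/+ and −0.13 to 0.14 in Myd88-/- glands, and Pip saturated.

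No marker gene of the 7 cell types passed limma's adjusted test (0 of 62), with 11 lower and 2 higher at an unadjusted p under 0.05, beside 5.55% and 4.5% of all probe sets. Leukocyte markers were lower for 11 of 12 genes, at a median of −0.84, and ran from −0.13 to 1.06 in Myd88+/+ and from −0.54 to −0.36 in Myd88-/- glands. The lymphocyte genes Cd3d, Cd8a, Cd79a and Ms4a1 were under the background control median. The mean level of the leukocyte list was 6.59 to 7.78 in Myd88+/+ and 6.19 to 6.37 in Myd88-/- glands. These levels lay under the negative control level of 9.82, so signal limits this list too. Myoepithelial and basal markers were lower for 8 of 9 genes, at a median of −0.45, and ran from −0.04 to 0.56 and from −0.46 to 0.17. Leukocyte and myoepithelial values peaked in Myd88+/+ replicate 3, the gland in which Foxi1 and Ascl3 were lowest among Myd88+/+ glands. The part of cell makeup in the members' differences was not tested. Endothelial markers had a median of −0.28 (5 of 6 lower, ranges −0.11 to 0.30 and −0.34 to 0.07). Skeletal muscle markers had 0.27 (6 of 7 higher, ranges −0.29 to −0.03 and 0.07 to 0.19), with 5 of 7 genes under background. Adipocyte markers had 0.15 (4 of 6 higher, ranges −0.34 to 0.45 and 0.04 to 0.07). The mean levels of the endothelial, skeletal muscle and adipocyte lists were also under 9.82 in every gland. The Myd88 probe set differed by −0.53 (limma adjusted p = 0.46). No label says which exons the allele lacks, so this value is no check of the genotype.

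Genes that work with the members were taken as 4 lists of 73 measured genes in all. No gene passed limma's adjusted test (0 of 73). By direction, 42 were lower and 31 higher at a median of −0.07, with 7 lower and 4 higher at an unadjusted p under 0.05. Over all probe sets 47.5% were lower, and 5.55% were lower and 4.5% higher at that p. The genes given for each list are those with its smallest p. Background for the lists is the control median of 5.55, a lower bar than the negative control level of 9.82 used for the members. Slc4a1, Dmrt2, Moxd1, Atp6v1b2, Atp6v1f and Furin, named below, passed the first but had both means under 9.82, so signal limits them too.

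Other genes of ionocytes and intercalated cells were split in direction. Of 19 measured, 7 were lower and 12 higher at a median of 0.13, and 13 lay above the background control median. Slc4a1, the chloride-bicarbonate exchanger of intercalated cells and red blood cells, read 7.87, 8.40 and 8.02 in Myd88+/+ glands, against 8.92, 8.44 and 8.96 in Myd88-/- glands, a difference of 0.68 without overlap (limma adjusted p = 0.40). Dmrt2, a transcription factor gene of intercalated cells, had −0.65 (limma adjusted p = 0.48), and Moxd1, a monooxygenase-like gene, had −0.33. Atp6v0a4, a membrane subunit of the ionocyte proton pump, had 0.33 with both means, 3.99 and 4.32, under the background control median of 5.55.

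Proton pump subunits that most cells share were lower for 10 of 15 genes and higher for 5, at a median of −0.09. Atp6v1b2, the widely expressed counterpart of Atp6v1b1, read 9.95, 9.64 and 9.72 in Myd88+/+ glands, against 9.19, 8.83 and 9.51 in Myd88-/- glands. The groups did not overlap and differed by −0.59 (SE 0.21, limma adjusted p = 0.43). The B1 gene differed by −0.09, and the difference between these genes in their response was not tested. Atp6v1f had −0.50, the catalytic subunit gene Atp6v1a −0.29 and the accessory subunit gene Atp6ap1 −0.31, all 3 with overlapping groups.

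Genes that control the sodium channel were lower for 14 of 21 and higher for 7, at a median of −0.17. Furin, a protease that cleaves the alpha and gamma subunits on their way to the surface, had means of 8.84 ± 0.05 and 8.29 ± 0.31 (SD, n = 3 each), a difference of −0.55 (SE 0.19, limma adjusted p = 0.44). Prss8, the membrane-bound protease prostasin that activates the channel, had −0.36, with means of 11.71 ± 0.13 and 11.36 ± 0.15 (SD, n = 3 each), and the kinase gene Wnk1 had −0.47. All 3 had groups that did not overlap, and their adjusted p ran from 0.44 to 0.52. Stx1a, a syntaxin that binds the channel, had 0.38, also without overlap, with both means, 3.43 and 3.81, under background. Of the 21 genes, 4 were lower and 1 higher without overlap, beside 7.25% and 7.84% of all probe sets.

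Genes that control Cftr or carry anions in ducts were lower for 11 of 18 and higher for 7, at a median of −0.05. Car12, a carbonic anhydrase on the cell surface, had the largest difference of all 73 genes. It read 13.94, 13.91 and 14.11 in Myd88+/+ glands, against 11.92, 13.66 and 12.74 in Myd88-/- glands, so the Myd88-/- glands spread widely with replicate 2 nearest to Myd88+/+. The difference was −1.21 (SE 0.37, limma adjusted p = 0.39). Car2, the cytosolic carbonic anhydrase, had means of 10.30 ± 0.30 and 11.05 ± 0.62 (SD, n = 3 each), a difference of 0.75 with overlapping groups (limma adjusted p = 0.46). Adcy6, which makes the cyclic AMP that opens Cftr, read 12.68, 12.55 and 12.51 in Myd88+/+ glands, against 13.34, 13.06 and 12.83 in Myd88-/- glands, a difference of 0.49 without overlap (limma adjusted p = 0.44). Wnk4 had 0.54 with both means under background.

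**Figure D4:**
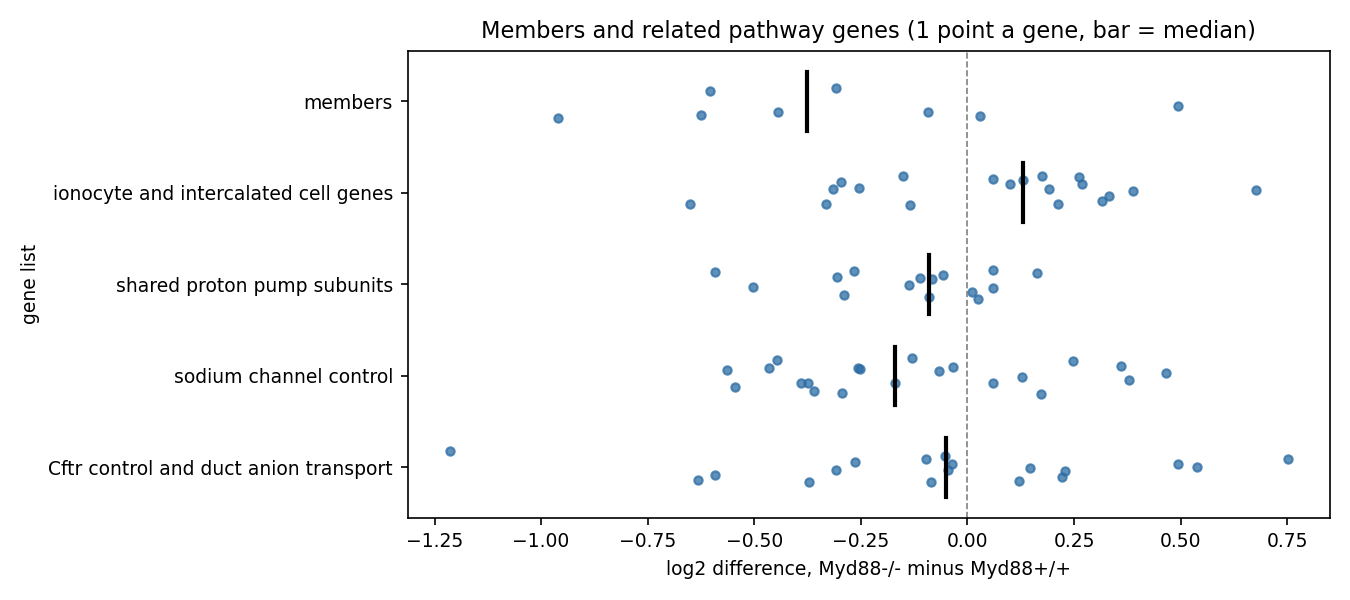
Log2 difference, Myd88-/- minus Myd88+/+ (horizontal axis), of each gene (points, spread vertically for sight) in the set of 8 members and in 4 lists of related genes (rows), with a black bar at the median. Medians are −0.38 for the members and 0.13, −0.09, −0.17 and −0.05 for the lists from top to bottom.

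For each member the genes with the most similar course over the 6 glands were found among 10802 other genes above background, by the mean absolute difference of centred log2 values. They are given as a description, since nearest genes exist for any course over 6 points. Ascl3, whose own mean absolute deviation was 0.51, lay nearest to Cited2, a transcription coregulator gene, at 0.09, to Slc35c2 at 0.09 and to Cldn4, one of the duct markers, at 0.13. Foxi1 lay nearest to Rpl29, Prkrip1 and Gnpat at 0.07, 0.08 and 0.08. The distance between Foxi1 and Ascl3 was 0.30, and 370 genes were closer to Ascl3 than Foxi1 was. Seen from Foxi1, whose own mean absolute deviation was also 0.30, Ascl3 stood at place 3252 of the 10802 genes. Scnn1b lay nearest to Tfcp2l1, a transcription factor gene of salivary ducts and intercalated cells, at 0.05, ahead of Secisbp2 and Amt at 0.07 each.

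Scnn1a lay nearest to Dpyd, Snx12 and Chchd10, at 0.04, 0.04 and 0.05, and Scnn1g to Ppp1r18, Plxdc2 and Btn1a1, at 0.09, 0.10 and 0.11. No subunit was among the 3 genes nearest to another, with 0.19 between Scnn1a and Scnn1b, 0.28 between Scnn1a and Scnn1g and 0.29 between Scnn1b and Scnn1g. Cftr had no near match, its closest genes being Bglap, Stra6l and the adipocyte gene Fabp4 at 0.18, 0.18 and 0.19. It stood 0.63 from Foxi1 and 0.73 from Ascl3. Bsnd lay nearest to Rnpc3, D8Ertd738e and Nfs1 at 0.02, 0.03 and 0.03, and Atp6v1b1 to Echs1, Lmntd2 and Ap3d1 at 0.02, 0.03 and 0.03, both genes whose values varied little.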

How the data were processed

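Genotype came from the titles and the strain field of the labels. Per the labels, the authors made the deposited log2 values by RMA, the robust multi-array average, in Transcriptome Analysis Console. The sources used here name neither its version, nor the RMA variant, nor the annotation build. That the scale is log2 follows from the values, whose ceiling is 19.93. RMA shrinks small differences near background. Of 28846 probe sets, 6640 controls were left out and 22206 tested, of which 2634 were unnamed. A gene was read from its probe set with the highest mean. Limma 3.58.1 in R 4.3.3 (lmFit, eBayes, no trend, no covariates) compared Myd88-/- with Myd88+/+ glands over all tested probe sets, with Benjamini-Hochberg adjustment, and 0.05 was the threshold. The script was tested on simulated data. The number of arrays limits the precision. Background is the median of 23 background control probe sets. The named genes are the 8 members, Myd88, the 4 genes of each pathway list with the smallest unadjusted p, and the 3 genes nearest to each member, without predicted genes, clone names, olfactory receptors, small RNAs and antigen receptor segments. Other genes named are marker examples, saturated or dim ones. Members and lists were chosen with earlier results of these data known. Of the 151 listed genes, 135 had a probe set with that symbol. Alternatives were 3 normalizations, a filter on dim probe sets, an intensity trend, array weights, the replicate block, leaving out each mouse and, added later, the signal span as a covariate.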

Additional observations from a re-analysis of the deposited data

How the results depend on the processing

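No member passed limma's adjusted test under any of the 14 settings. Foxi1, Ascl3, Scnn1b and Scnn1g were negative and Cftr positive in all 14. Atp6v1b1 turned to 0.041 after quantile normalization, 0.0067 after cyclic loess and 0.050 with the signal span as a covariate, which also turned Scnn1a to 0.076, and ran from −0.21 to 0.053 when 1 mouse was left out. Bsnd ran from −0.10 to 0.14 when 1 mouse was left out. The cause was not tested. Over all probe sets limma called 0 in the main setting, 2 with median centring, 4 with an intensity trend and robust variances, and 0 to 5 without 1 mouse (5 when Myd88+/+ replicate 1 was omitted, 1 each on omitting replicate 3 of Myd88+/+ or replicate 2 of Myd88-/-). With the replicate block it called 0, with 1816 probe sets at an unadjusted p under 0.05 against 2232 without it. The titles number the mice alike in both groups, and the deviations of same-numbered mice correlated at −0.113, −0.155 and −0.019. With 3 mice in each group these values cannot settle whether the number marks a pairing, and the main setting took none. Another probe set could not be tried because each member had 1. Signal within the range of the negative controls limits Bsnd most, and also Ascl3, Atp6v1b1, Scnn1g and Foxi1.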
